A study of Mus musculus with 2 samples.

Results

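The messenger RNAs of 10 enzymes of the methionine cycle, transsulfuration and folate one-carbon metabolism were measured in the livers of 2 newborn mice. The 10 genes are Mat1a, Mat2a, Ahcy, Bhmt and Gnmt of the methionine cycle, Cbs and Cth of transsulfuration, and Shmt1, Shmt2 and Mthfd1 of the folate pathway. They were taken by gene symbol from 43346 genes listed in both libraries, with no threshold on their values, and all 10 were found. Both libraries belong to 1 group, liver of the B6NCrl strain on postnatal day 0 with no treatment named, from pup 3 (replicate 2) and pup 1 (replicate 1). Each library was made from 13 pg of tissue RNA longer than 200 nt, stated to be 1 cell-equivalent. A value is therefore an average over the cells of the organ, and fewer cells of a type cannot be told apart from less RNA per cell. Sex was not collected, and the labels give both livers the same donor entry. The design holds no treatment, genotype or second age, so levels and their spread between the pups are described and no test was possible.

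The methionine cycle turns methionine into S-adenosylmethionine, the methyl donor of most methylation reactions, and returns the homocysteine left after methyl transfer to methionine. Homocysteine can instead leave through transsulfuration, which ends in cysteine, a building block of glutathione and taurine. The folate pathway moves one-carbon units from serine and glycine into purines, thymidylate and methionine. The liver is a main site of these reactions in the body, and hepatocytes carry most of its betaine-dependent and transsulfuration enzymes.

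The libraries held 34792898 expected counts outside spike-ins for pup 3 and 54817565 for pup 1, so 3 counts equalled 0.0862 CPM in pup 3 and 0.0547 CPM in pup 1. Levels are given as TPM, a length-corrected abundance, after spike-ins were taken out and the rest rescaled to a total of 1000000. All 10 hepatocyte markers were detected at 1 TPM or more in both libraries and together made up 14.3% of TPM in pup 3 and 17.03% in pup 1. Of 10 erythroid markers, 7 were detected in both libraries, with 16.4% of TPM in pup 3 and 13.3% in pup 1, and Gata1 was at 0 in both. All 7 neutrophil markers were detected in both, at 0.909% in pup 3 and 0.632% in pup 1. The other blood and stromal lists (macrophage, megakaryocyte, stellate, endothelial, bile duct and lymphocyte) each made up between 0.0170% and 0.131% in pup 3 and between 0.0115% and 0.0781% in pup 1, with Krt7, Epcam and Cd3e at 0 in both. All 5 kidney markers and all 5 exocrine pancreas markers, for organs that also use these enzymes heavily, were at 0 counts in both libraries.

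All 10 enzyme genes reached 1 TPM in both livers. Over the whole table, 7678 genes reached 1 TPM in at least 1 library and 46.3% of them did so in both, a share that was 84.3% among the 2918 genes averaging 30 TPM or more, where all 10 enzyme genes lie. The 10 genes made up 0.701% of TPM in pup 3 and 0.801% in pup 1, or 0.751 ± 0.0704% (SD, n = 2). Bhmt and Mat1a alone held 64.1% of that sum in pup 3 and 82.8% in pup 1.

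Mean levels ran from 79.5 TPM for Mthfd1 to 3494 TPM for Bhmt. In descending order of the mean the genes were Bhmt, Mat1a, Gnmt, Ahcy, Cth, Cbs, Mat2a, Shmt2, Shmt1 and Mthfd1. The values of neighbours in this order did not overlap for Bhmt and Mat1a, for Mat1a and Gnmt, or for Gnmt and Ahcy. From Ahcy downwards every pair of neighbours overlapped. Ahcy overlapped Cth alone and lay above the other 5 lower genes in both pups. The lower 6 genes, from Cth to Mthfd1, all overlapped each other, so their order does not exceed the spread between the pups.

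**Figure D1:**
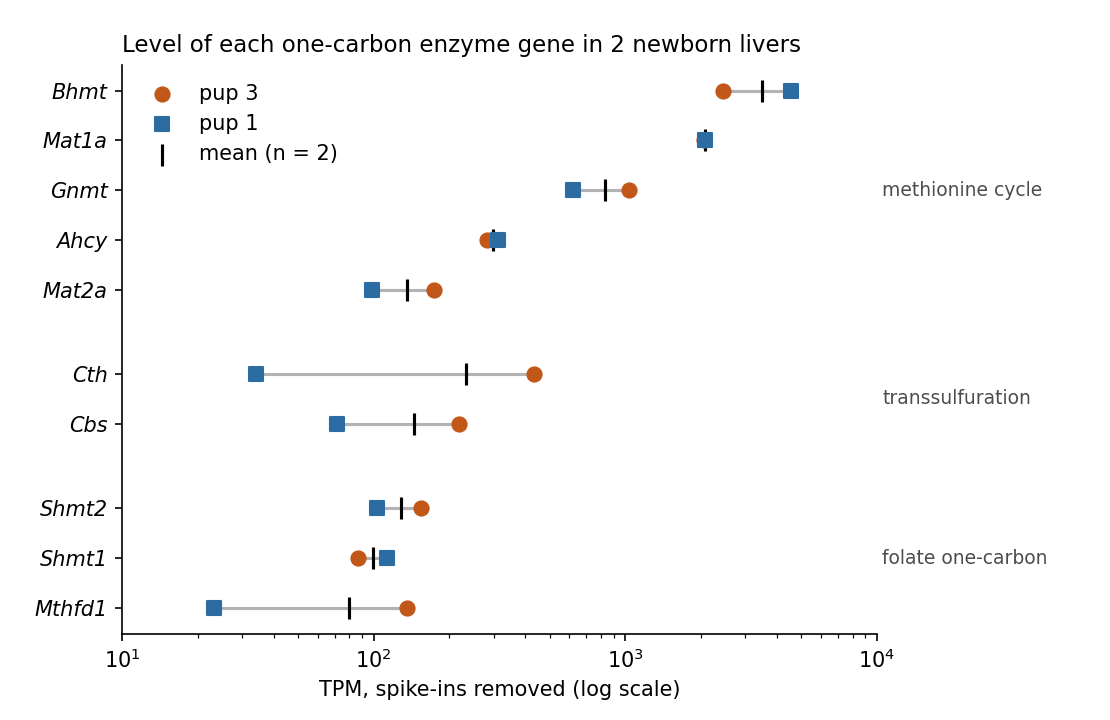
Level of each of the 10 enzyme genes in TPM on a log axis, grouped by pathway, with 1 point for pup 3 and 1 for pup 1 and a short bar at their mean. Bhmt, Mat1a and Gnmt stand above the other genes in both pups, and the points of Cth and Mthfd1 lie farthest apart.

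Bhmt encodes betaine-homocysteine methyltransferase, which remakes methionine from homocysteine with a methyl group of betaine. It had 2434 TPM in pup 3 (151830 expected counts, rank 49 among all genes) against 4554 TPM in pup 1 (415423 expected counts, rank 30). The mean was 3494 ± 1499 TPM (SD, n = 2), and the level in pup 3 was 0.535 times that in pup 1, with a 95% interval of 0.531 to 0.538 that covers counting error only. Bhmt lies on chr13:93616675-93637961, minus strand, and the paralog Bhmt2, which encodes an S-methylmethionine-dependent methyltransferase, lies next to it at chr13:93655720-93674302. Bhmt2 had 270 TPM in pup 3 against 323 TPM in pup 1, so Bhmt exceeded it 9.00-fold in pup 3 and 14.1-fold in pup 1. Dmgdh, for the dimethylglycine dehydrogenase that takes up the product of the BHMT reaction, lies beside Bhmt2 on the opposite (plus) strand. Bhmt2 is on the minus strand, so 130 bases separate the starts of these neighbours, and the 3 genes span 136 kb. Dmgdh had 82.7 TPM in pup 3 against 76.0 TPM in pup 1. The pseudogene Bhmt-ps1 on chromosome 4 had 5.49 TPM in pup 3 against 9.41 TPM in pup 1, and reads shared with such a copy are divided by estimation.

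Mat1a and Mat2a each encode a catalytic subunit of methionine adenosyltransferase, which makes S-adenosylmethionine. MAT1A is the form of adult hepatocytes, and MAT2A is the form of fetal liver and of most other tissues. Mat1a (chr14:41105035-41124412, plus strand) had 2058 TPM in pup 3 against 2078 TPM in pup 1, with rank 57 in both, and its mean was 2068 ± 14.2 TPM (SD, n = 2). Mat2a (chr6:72432799-72439558, minus strand) had 174 TPM in pup 3 against 98.7 TPM in pup 1, or 136 ± 53.1 TPM, and pup 3 was 1.76-fold higher (1.72 to 1.81, counting error only). Mat1a had the smallest spread of the 10 genes between the pups in TPM, and it exceeded Mat2a 11.8-fold in pup 3 and 21.1-fold in pup 1. It made up 92.2% of the summed TPM of both in pup 3 and 95.5% in pup 1. Mat2b, for the regulatory subunit that partners MAT2A, had 90.6 TPM in pup 3 against 96.0 TPM in pup 1.

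Gnmt encodes glycine N-methyltransferase, a liver enzyme that uses up surplus S-adenosylmethionine by methylating glycine. It had 1034 TPM in pup 3 against 621 TPM in pup 1 (828 ± 292 TPM; SD, n = 2) and lies on chr17:46725664-46729168, minus strand. The level in pup 3 was 1.67-fold that in pup 1 (1.64 to 1.69, counting error only). Ahcy encodes S-adenosylhomocysteine hydrolase, which splits the product of every such methyl transfer into adenosine and homocysteine. It had 283 TPM in pup 3 against 312 TPM in pup 1, or 297 ± 20.3 TPM (SD, n = 2), and lies on chr2:155059310-155074497, minus strand. Gnmt thus exceeded Ahcy in both pups, 3.65-fold in pup 3 and 1.99-fold in pup 1. The 5 methionine cycle genes summed to 5984 TPM in pup 3 against 7664 TPM in pup 1.

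Transsulfuration had the largest ratio between the pups of the 3 branches, though not the largest difference in TPM, with a sum of 652 TPM in pup 3 against 106 TPM in pup 1. Cth encodes cystathionine gamma-lyase, which releases cysteine from cystathionine. It had 433 TPM in pup 3 (21220 expected counts) against 33.9 TPM in pup 1 (2424 expected counts), a 12.8-fold higher level in pup 3 (12.2 to 13.3, counting error only) and a mean of 234 ± 282 TPM (SD, n = 2). Its rank was 293 in pup 3 and 2874 in pup 1, and the SD exceeded the mean. Of 993 genes averaging 100 to 1000 TPM, 18 (1.81%) had a ratio of pup 3 over pup 1 at least as high. This count was made for Cth alone, which had the highest ratio of the 10 genes. The gene lies on chr3:157894248-157925077, minus strand. Cbs encodes cystathionine beta-synthase, which joins homocysteine to serine and so commits it to cysteine. It had 219 TPM in pup 3 (13751 expected counts) against 71.8 TPM in pup 1 (6708 expected counts), 3.05-fold higher in pup 3 (2.96 to 3.14, counting error only), with a mean of 145 ± 104 TPM (SD, n = 2). The order of both genes turned round between the livers, with a Cbs level 0.505 times that of Cth in pup 3 and 2.11 times in pup 1. Of the 10 hepatocyte markers, 6 were higher and 4 lower in pup 3, with a median log2 ratio of 0.22 and a lower sum in pup 3 (14.3%) than in pup 1 (17.03%), and none differed by 2-fold. The part of these markers in the Cth and Cbs values was not tested.

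Shmt1 and Shmt2 encode the cytosolic and the mitochondrial serine hydroxymethyltransferase, which pass a one-carbon unit from serine to folate. Shmt1 (chr11:60788104-60811718, minus strand) had 86.7 TPM in pup 3 against 113 TPM in pup 1, or 99.8 ± 18.5 TPM (SD, n = 2). Shmt2 (chr10:127517123-127522444, minus strand) had 155 TPM in pup 3 against 103 TPM in pup 1, or 129 ± 36.6 TPM. The cytosolic gene made up 35.9% of the summed TPM of both in pup 3 and 52.3% in pup 1, so neither gene total was the larger in both livers. Counting only coding transcripts, by their estimated split, put Shmt1 below Shmt2 in each liver. The coding Shmt1 level was then 86.4 TPM for pup 3 and 85.3 TPM for pup 1, while all of Shmt2 was coding. The end of Shmt2 overlaps Ndufa4l2 on the opposite strand, which had 39.5 TPM in pup 3 against 55.3 TPM in pup 1, and since the use of strand is not stated, reads in the overlap cannot be told apart. Mthfd1 encodes the trifunctional cytosolic enzyme that interconverts formyl-, methenyl- and methylene-tetrahydrofolate. It lies on chr12:76255298-76319803, plus strand, and had 136 TPM in pup 3 (12563 expected counts) against 23.1 TPM in pup 1 (3110 expected counts). The level in pup 3 was 5.89-fold that in pup 1 (5.66 to 6.13, counting error only), and the mean was 79.5 ± 79.8 TPM (SD, n = 2). The 8 proliferation markers, in whose cells folate enzymes serve DNA synthesis, summed to 540 TPM in pup 3 and 886 TPM in pup 1. Of these markers, 7 were detected in both libraries and none was at 0 in both. In pup 3, 2 were at least 2-fold higher (Top2a with 67.9 TPM against 0.0642 TPM in pup 1, and Ccnb1 with 73.8 TPM against 34.6 TPM in pup 1) and 5 at least 2-fold lower. Their part in the Mthfd1 values was not tested.

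Between the livers, 6 of the 10 genes were higher in pup 3 and 4 were lower. Cth, Mthfd1 and Cbs were at least 2-fold higher in pup 3, and none was at least 2-fold lower. Over 8120 genes averaging 10 or more expected counts, 36% were at least 2-fold higher in pup 3 and 38.5% at least 2-fold lower. The 3 of 10 higher lie near the first share, while 0 of 10 were lower. That background includes genes with at least 100 expected counts in 1 library and under 1 TPM in the other (47.8%). None of the 10 enzyme genes was of that kind, so the shares at like levels below are the closer comparison. Bhmt also passed 2-fold, lower in pup 3, with TMM or DESeq2 scaling, and Mat2a did, higher in pup 3, with spike-in scaling. At 100 to 1000 TPM, where 6 of the 10 genes lie, 22.4% of 993 genes were at least 2-fold higher and 12.8% at least 2-fold lower. At 30 to 100 TPM, which holds Mthfd1 and Shmt1, 31.2% of 1822 genes were at least 2-fold higher. The median log2 ratio of the 10 genes was 0.66, against 0.13 over the 4869 genes of that count level with a TPM above 0 in both libraries. Their median absolute log2 ratio was 0.78, against 1.27 over those 4869 genes and 0.68 over 985 genes at 100 to 1000 TPM. Over the 11 alternatives tried, the log2 ratio stayed between 3.41 and 3.88 for Cth, between 2.30 and 2.76 for Mthfd1 and between 1.34 and 1.81 for Cbs. The sign for Mat1a, Ahcy and Shmt1 depended on the alternative. Several alternatives shift the ratio of every gene by the same amount, and none reflects the sampling of 13 pg of RNA.

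**Figure D2:**
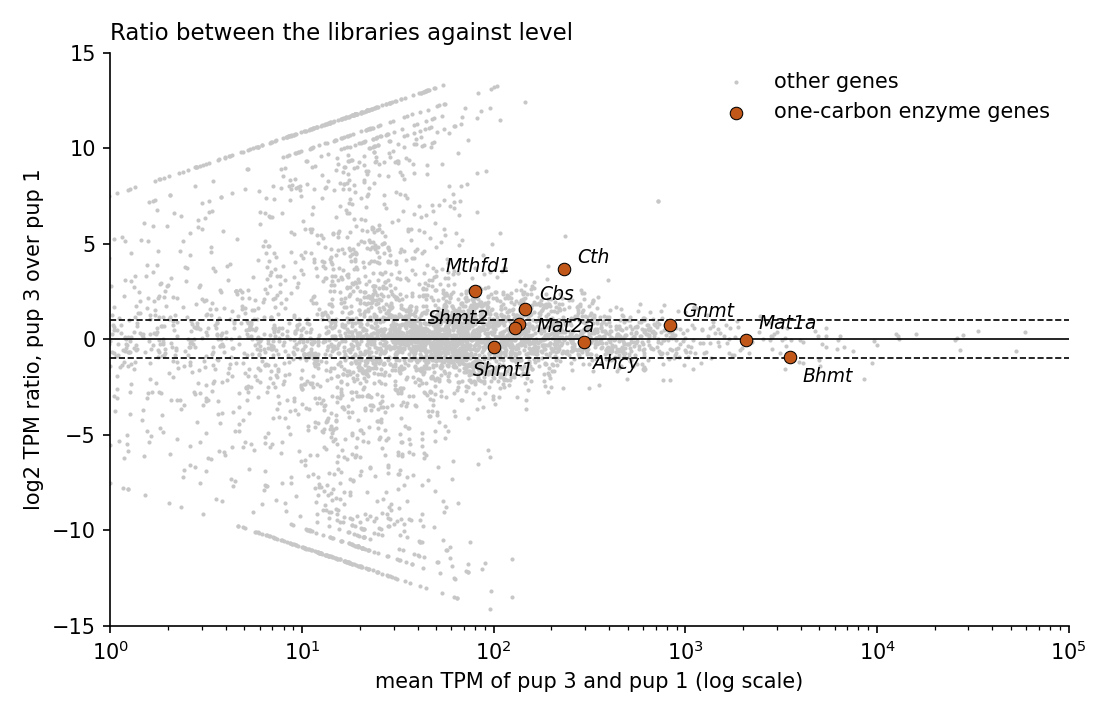
Log2 ratio of TPM, pup 3 over pup 1, against the mean TPM on a log axis, for genes averaging 10 or more expected counts, with a TPM above 0 in both libraries and a mean of 1 TPM or more. Grey points are other genes and dashed lines mark 2-fold either way. Cth, Mthfd1 and Cbs lie above the upper line, and the other 7 enzyme genes lie between the lines.

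The transcript tables list 34 transcripts of the 10 genes, and 4 genes (Mat1a, Mat2a, Shmt2 and Mthfd1) have a single listed transcript. In 8 genes only 1 transcript reached 5% of the gene's TPM in either library. Cbs and Shmt1 had several. Retained-intron forms stayed low in the abundant genes, with 0.15% of Bhmt TPM in pup 3 and 0.60% in pup 1, and 0.24% of Gnmt TPM in pup 3 and 3.33% in pup 1.

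The 2 main Cbs transcripts differ by a coding exon, and their sequences around it are shown because the balance between them differed between the livers. The exon is number 16 of 17 in Cbs-201, at chr17:31614529-31614570 on the minus strand of GRCm38. It holds 42 bases, or 14 codons, and Cbs-202 skips it. The lines run 5′ to 3′ from the GENCODE M21 transcripts with 30 bases on either side, and the capitals mark the exon.
Cbs-201: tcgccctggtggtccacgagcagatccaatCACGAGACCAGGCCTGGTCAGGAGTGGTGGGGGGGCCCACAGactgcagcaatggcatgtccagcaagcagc
Cbs-202: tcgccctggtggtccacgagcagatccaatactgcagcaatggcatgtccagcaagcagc
Cbs-202, without the exon, made up 75.6% of Cbs TPM in pup 3 (10901 expected counts) and 49.9% in pup 1 (3445 expected counts). Cbs-201, with the exon, made up 16.4% in pup 3 (2462 expected counts) and 44.7% in pup 1 (3212 expected counts). In TPM, Cbs-202 had 165 in pup 3 and 35.8 in pup 1, while Cbs-201 had 35.8 in pup 3 and 32.1 in pup 1, so the difference in total Cbs lay mostly in the form that lacks the exon. The shorter Cbs-205 made up 7.98% in pup 3 and was listed at 0 in pup 1. Cbs-201 and Cbs-202 also differ at their ends, and the split is an estimate from reads that they mostly share.

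Shmt1 split in the other library. Shmt1-201, the main coding transcript, made up 99.7% of Shmt1 TPM in pup 3 and 68.1% in pup 1. Another 3 forms were listed at 0 in pup 3 and above 5% in pup 1. They were the retained-intron form Shmt1-205 at 14.7% (334 expected counts), the processed transcript Shmt1-208 at 8.55% (482 expected counts) and the coding Shmt1-210 at 7.51% (434 expected counts). Noncoding forms made up 0.318% of Shmt1 TPM in pup 3 and 24.4% in pup 1. With coding transcripts alone, Shmt1 had 86.4 TPM in pup 3 against 85.3 TPM in pup 1. By this split the difference in the gene total lay in the noncoding forms, which held 841 expected counts in pup 1. The split is an estimate, and as CPM, not corrected for length, the log2 ratio of the gene total was 0.09.

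**Figure D3:**
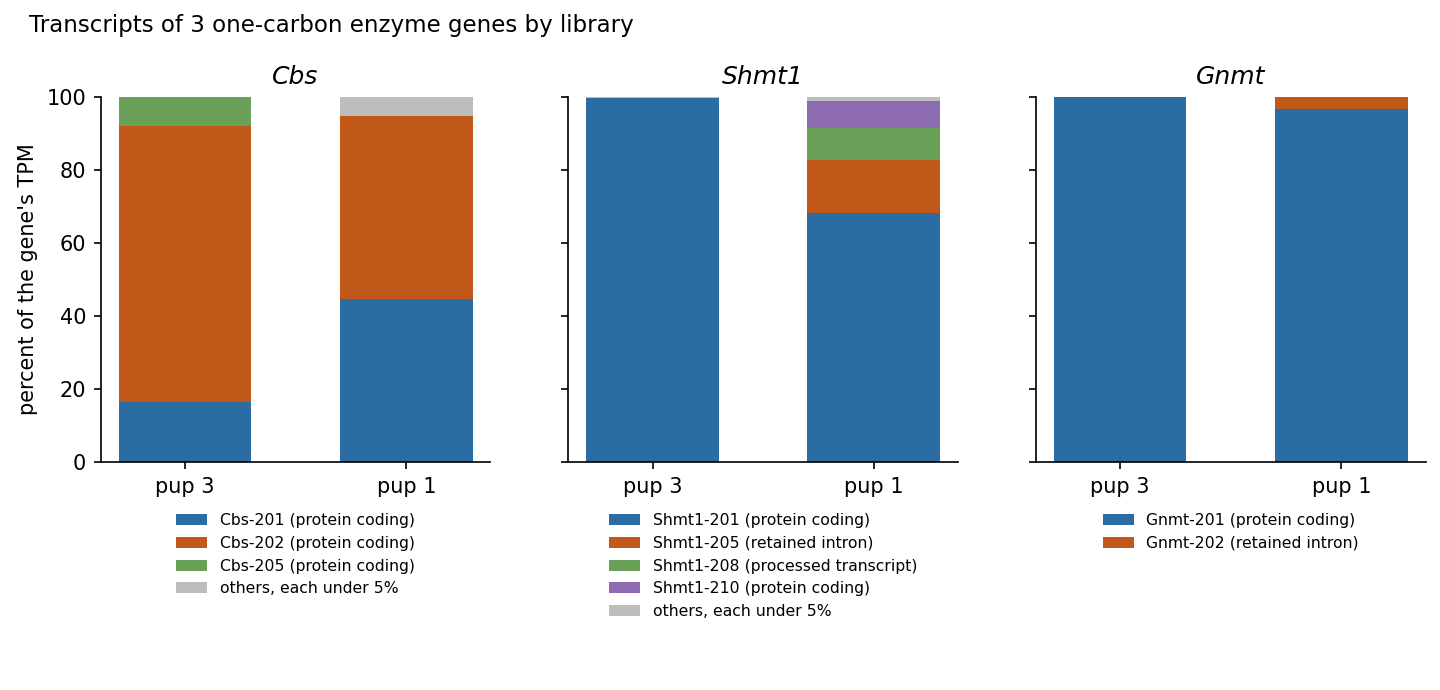
Share of each gene's TPM, in percent, held by the transcripts of Cbs, Shmt1 and Gnmt, with a stacked bar for pup 3 left of pup 1. Cbs-202 holds 75.6% in pup 3 and 49.9% in pup 1, Shmt1-201 holds 99.7% in pup 3 and 68.1% in pup 1, and the retained-intron form of Gnmt holds 0.24% in pup 3 and 3.33% in pup 1.

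Promoter windows from RefSeq (GRCm38.p6), 250 bases before to 50 after the start, were matched for 8 of the 10 genes. CpG dinucleotides numbered from 8 in Bhmt to 34 in Mat2a, against a median of 7 over 32851 windows. Cbs had 22, Shmt1 17, Mthfd1 16, Ahcy and Shmt2 13 each, and Gnmt 11. The windows of Mat2a (chr6:72439507-72439806, minus strand) and Bhmt (chr13:93637709-93638008, minus strand) are shown because they have the most and the fewest CpGs of the 8, and the capitals mark each CG.
Mat2a: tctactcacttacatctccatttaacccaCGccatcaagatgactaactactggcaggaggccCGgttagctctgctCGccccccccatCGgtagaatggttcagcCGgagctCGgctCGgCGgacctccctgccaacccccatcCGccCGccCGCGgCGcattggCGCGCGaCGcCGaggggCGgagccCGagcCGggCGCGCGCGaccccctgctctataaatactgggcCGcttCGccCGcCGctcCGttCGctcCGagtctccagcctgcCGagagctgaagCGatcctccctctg
Bhmt: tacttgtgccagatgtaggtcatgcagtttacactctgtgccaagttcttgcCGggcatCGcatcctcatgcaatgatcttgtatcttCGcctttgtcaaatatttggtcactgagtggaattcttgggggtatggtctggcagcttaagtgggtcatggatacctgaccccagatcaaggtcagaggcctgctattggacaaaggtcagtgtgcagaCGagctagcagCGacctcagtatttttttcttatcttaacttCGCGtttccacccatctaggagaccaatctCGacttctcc
The letters TATAAA, searched on both strands, occurred in the window of Mat2a alone of the 8, and in 13.6% of all windows. CCAAT, searched likewise, occurred in 7 of the 8 windows (not that of Shmt2), and in 37.4% of all windows. These matches describe letters and not binding.

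Other genes of these pathways were taken as 8 lists that held 73 symbols, of which 72 were matched. Of the 72, 29 reached 1 TPM in both libraries, 12 in pup 3 alone, 13 in pup 1 alone and 18 in neither. Those detected in both were 53.7% of the 54 detected in either, beside the 46.3% over all genes. Of 55 averaging 10 or more expected counts, 21 (38.2%) were at least 2-fold higher in pup 3 and 16 (29.1%) at least 2-fold lower, beside 36% and 38.5% over all genes. The median log2 ratio of the 38 with a TPM above 0 in both was -0.03, against 0.13 over all such genes. With counts under 3 set to 3 in a library, the medians were 0.09 for the 55 genes and -0.05 over all 8120. In 25 of the 55 (45.5%), 1 library held at least 100 expected counts and the other under 1 TPM, beside 47.8% over all 8120 genes.

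**Figure D4:**
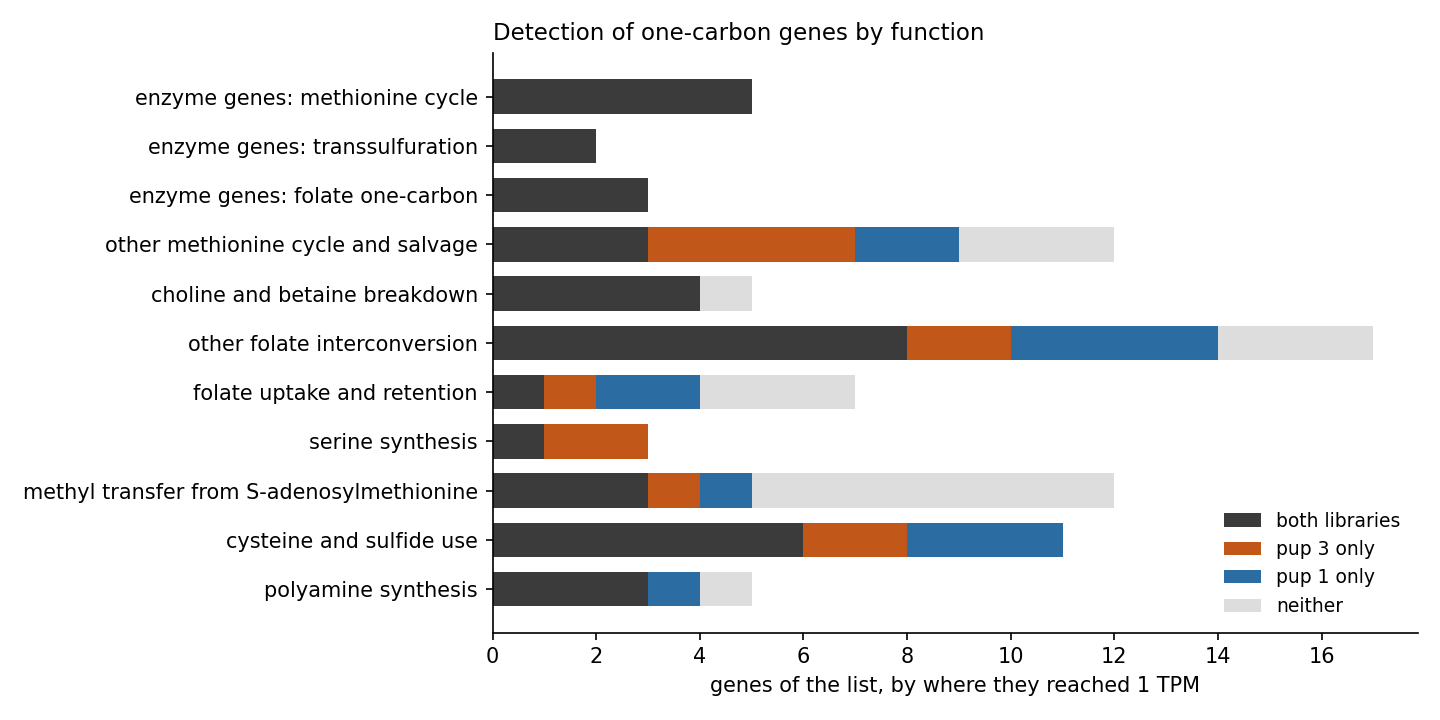
Number of genes of each list detected at 1 TPM or more in both libraries, in pup 3 alone, in pup 1 alone or in neither. The lists with all genes detected in both are the 3 groups of enzyme genes (5, 2 and 3 genes).

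In the remaining methionine cycle and salvage list, 3 of 12 genes were detected in both libraries, 4 in pup 3 alone, 2 in pup 1 alone and 3 in neither. Those in both were Adk, Bhmt2 and Mat2b. Adk, for the adenosine kinase that clears the other product of AHCY, had 400 TPM in pup 3 against 284 TPM in pup 1. Mtr, for the folate-dependent methionine synthase, had 0 counts in pup 3 and 199 counts (1.09 TPM) in pup 1, and Mtrr, for the reductase that reactivates it, had 2.37 TPM in pup 3 and 0 in pup 1. Bhmt thus held 100% of the summed Bhmt and Mtr TPM in pup 3 and 99.98% in pup 1. Mtr, like 47.8% of all 8120 genes, had at least 100 expected counts in 1 library and under 1 TPM in the other. The share in pup 3 thus rests on a gene that was not read there. Of the methionine salvage genes, Mri1 (69.4 TPM) and Adi1 (5.51 TPM) were read in pup 3 alone, and Apip (47.4 TPM) in pup 1 alone. Ahcyl1, a relative of Ahcy without its hydrolase activity, had 57.3 TPM in pup 3 and 1 count in pup 1.

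Of 5 genes of choline and betaine breakdown, 4 were detected in both libraries and none of these differed by 2-fold. Among all genes at 30 to 100 TPM, 31.2% were at least 2-fold higher in pup 3. At 100 to 1000 TPM, 22.4% were at least 2-fold higher and 12.8% at least 2-fold lower. With only 4 genes, the count does not show that this list was steadier than other genes. Pipox, for an oxidase of sarcosine and pipecolate, had 121 TPM in pup 3 against 98.5 TPM in pup 1. Sardh, for the sarcosine dehydrogenase that turns the product of GNMT back into glycine, had 55.8 TPM in pup 3 against 82.9 TPM in pup 1, and Aldh7a1, for an enzyme that makes betaine from its aldehyde, had 81.2 TPM in pup 3 against 52.3 TPM in pup 1. Chdh, for the choline dehydrogenase ahead of it, was at 0 counts in both libraries. The floor set by read depth was 0.0862 CPM in pup 3 and 0.0547 CPM in pup 1. That floor leaves out the sampling of RNA molecules before PCR, so it does not bound the Chdh level in the liver.

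Of 17 other folate genes, 8 were detected in both libraries, 2 in pup 3 alone, 4 in pup 1 alone and 3 in neither. Ftcd and Aldh1l1, which encode enzymes that handle formimino and formyl groups in hepatocytes, were lower in pup 3, with 82.7 TPM against 305 TPM in pup 1 for Ftcd and 28.8 TPM in pup 3 against 161 TPM in pup 1 for Aldh1l1. Tyms, for thymidylate synthase, was higher in pup 3, with 134 TPM against 51.0 TPM in pup 1. Mthfd1 was thus higher and Ftcd and Aldh1l1 lower in the same liver. Gcsh, for the H protein of the glycine cleavage system, had 123 TPM in pup 3 against 125 TPM in pup 1. Its partners Amt (0.848 TPM in pup 3, 14.4 TPM in pup 1) and Gldc (0.0848 TPM in pup 3, 6.57 TPM in pup 1) were below 1 TPM in pup 3. Gart, a purine synthesis gene, had 0 counts in pup 3 and 74.9 TPM in pup 1. Mtfmt, for the formyltransferase of mitochondrial initiator tRNA, and Mthfd1l, for mitochondrial formate production, had 54.3 and 27.2 TPM in pup 3 and 0 counts in pup 1.

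Of 7 genes of folate uptake and retention, 1 was detected in both libraries. This was Fpgs, for the synthase that adds glutamates to folate, with 123 TPM in pup 3 against 48.2 TPM in pup 1. Ggh, for the hydrolase that removes them, had 0 TPM in pup 3 against 52.7 TPM in pup 1. The folate transporter gene Slc46a1 had 1 count in pup 3 and 44.3 TPM in pup 1, and the receptor gene Folr2 had 52.4 TPM in pup 3 and 0 in pup 1. Folr2 is known from macrophages, whose 8 markers summed to 1305 TPM in pup 3 against 781 TPM in pup 1, with 5 in both libraries, 3 in pup 3 alone and none at 0 in both. The part of that difference in the Folr2 values was not tested. Of the 3 serine synthesis genes, Psat1 had 74.4 TPM in pup 3 against 76.9 TPM in pup 1. The first enzyme gene, Phgdh, had 46.7 TPM in pup 3 and 1 count in pup 1, and the last, Psph, had 63.5 TPM in pup 3 and 0 in pup 1.

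Of 12 measured methyltransferase genes, 3 were detected in both libraries, 1 in each library alone and 7 in neither. Pemt, for the phosphatidylethanolamine methyltransferase that consumes much of the liver's S-adenosylmethionine, had 902 TPM in pup 3 against 254 TPM in pup 1, 3.55-fold higher in pup 3. Gamt, for creatine synthesis, had 44.4 TPM in pup 3 against 39.8 TPM in pup 1. The DNA methyltransferase genes Dnmt1 and Dnmt3b were read in opposite libraries. Dnmt1 had 2.70 TPM in pup 3 and 1 count in pup 1, and Dnmt3b had 1 count in pup 3 and 28.1 TPM in pup 1. Dnmt3a had 0 counts in pup 3 and 14 in pup 1. Of 8120 genes, 47.8% had at least 100 expected counts in 1 library and under 1 TPM in the other.

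Of 11 genes of cysteine and sulfide use, 6 were detected in both libraries, 2 in pup 3 alone and 3 in pup 1 alone. Cdo1, for the dioxygenase that starts cysteine breakdown to taurine and sulfate, had 432 TPM in pup 3 against 130 TPM in pup 1. It was 3.33-fold higher in pup 3, where Cth and Cbs were also higher. Of the 11 genes, however, 4 were higher and 7 lower in pup 3. Past 2-fold, 3 were higher and 4 lower, beside 36% and 38.5% over all genes. Csad, for the next step to taurine, had 124 TPM in pup 3 against 154 TPM in pup 1. Got1, for an aspartate aminotransferase that also accepts a cysteine product, had 398 TPM in pup 3 against 693 TPM in pup 1, and Tst, for a sulfur transferase, had 299 TPM in pup 3 against 264 TPM in pup 1. The genes for glutathione's first enzyme were read mainly in pup 3, with 28.5 TPM against 0.589 TPM in pup 1 for Gclc and 2.64 TPM in pup 3 against 0 in pup 1 for Gclm. Sqor, Suox and Mpst, for sulfide and sulfite oxidation and mercaptopyruvate use, were read mainly in pup 1. Sqor had 0.0530 TPM in pup 3 against 82.1 TPM in pup 1. Suox and Mpst had 0 counts in pup 3 and 76.3 and 8.61 TPM in pup 1. Gss, also of glutathione synthesis, had 49.4 TPM in pup 3 against 82.5 TPM in pup 1. Ethe1, also of sulfide oxidation, had 13.4 TPM in pup 3 against 56.2 TPM in pup 1. Over all 8120 genes, 47.8% had at least 100 expected counts in 1 library and under 1 TPM in the other.

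Polyamine synthesis draws on decarboxylated S-adenosylmethionine. Of 5 polyamine genes, 3 were detected in both libraries. Amd1, for the decarboxylase itself, had 54.6 TPM in pup 3 against 10.4 TPM in pup 1, 5.26-fold higher in pup 3. Sat1, for polyamine acetylation, had 183 TPM in pup 3 against 78.4 TPM in pup 1, and Odc1, for ornithine decarboxylase, had 10.045 TPM in pup 3 against 9.47 TPM in pup 1. Srm, for spermidine synthase, had 0 TPM in pup 3 against 21.2 TPM in pup 1.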

How the data were processed

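RNA-seq libraries of 2 newborn livers were used, prepared from mirVana-extracted RNA by a SmartSeq protocol, per the labels' protocols. That method amplifies cDNA by PCR, no molecular identifiers appear in the tables, and the PCR steps start from very little RNA. Assembly mm10 and GENCODE M4 are named in the deposited notes. Column names match those of RSEM output, but aligner, quantifier and any use of strand are not given in sources used here.

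Expected counts were deposited as the authors' estimates, not whole in every case. The authors also deposited TPM and FPKM, both corrected for effective length, with spike-ins in the total. The deposited posterior mean TPM and its bounds were treated as a score. Isoform percent, also deposited, is a transcript's share of its gene's TPM. From these, spike-ins (3.28% of expected counts in pup 3 and 3.76% in pup 1) were removed and TPM was rescaled to 1000000. GENCODE M21 (GRCm38, also called mm10) supplied gene names and positions by unversioned identifier and matched 42462 of 43346 genes (98.0%).

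A gene was called detected at 1 TPM. Ratios are pup 3 over pup 1, with exact 95% intervals from the counts. The intervals treat reads as independent and leave out the sampling of RNA molecules before PCR. SDs have n = 2 libraries and include technical spread. Counts of genes past 2-fold used genes averaging 10 or more expected counts and no test, since the labels give 1 group. The named genes were all 10 enzyme genes, their transcripts at 5% or more, per list the 4 of highest mean, and those with at least 100 expected counts in 1 library and under 1 TPM in the other. Some genes that this rule takes are not reported here. The enzyme genes were picked by symbol, with no rule on measured values, but they and the lists were chosen with earlier results of these data known. The counting of ratios was tested on simulated data with known folds. Those data held counting error only and left out the sampling of RNA molecules before PCR, so they check the counting step alone. Alternatives covered other units, totals, thresholds, pseudocounts, thinning, each library alone, and scaling of rounded expected counts by edgeR 4.0.16 TMM factors, DESeq2 1.42.0 size factors and spike-in totals. Work was done in R 4.3.3 and in Python 3.11.15 with scipy 1.17.1, pandas 2.3.3, matplotlib 3.10.9 and numpy 2.4.6.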

Additional observations from a re-analysis of the deposited data

How the results depend on the processing

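The summed share of the 10 enzyme genes was 1.38% as CPM, which is not corrected for length, and 0.923% with mitochondrial genes and globins left out of the total, against 0.751% as reported. It ran from 0.701% to 0.801% with either library alone. At a threshold of 1.5-fold, 7 of the 10 genes passed in place of 3. Scaling by edgeR TMM factors or DESeq2 size factors moved every gene's log2 ratio by -0.26 and brought Bhmt to at least 2-fold lower in pup 3 (4 genes past 2-fold), and scaling by ERCC spike-in totals moved every ratio by 0.20 and brought Mat2a to at least 2-fold higher (also 4). The log2 ratio of Mat1a ran from -0.28 to 0.19, that of Ahcy from -0.40 to 0.06 and that of Shmt1 from -0.64 to 0.09, so these 3 changed sign. For Mat1a that was with CPM, with spike-ins kept, with mitochondrial genes and globins left out and with ERCC scaling, for Ahcy with ERCC scaling, and for Shmt1 with CPM and with coding transcripts only. Those of the other 7 kept their sign in all 11 alternatives. The alternative of coding transcripts only was added after the data were seen. With either library left out no ratio exists. No paired analysis was possible because the labels give 1 group. Read depth was not limiting for the 10 genes, the lowest of which had 2424 expected counts. How many RNA molecules these reads stem from is not known, because there were no molecular identifiers. A gene at 0 here was not detectable from 13 pg of RNA, which does not show that it was absent from the liver.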
